A study of Mus musculus with 6 samples.

Results

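The genes described here are 36 nuclear genes that build, shape and maintain mitochondria. They were chosen as a list of symbols for mitochondrial biogenesis, mitochondrial DNA upkeep, fusion and fission, chaperones, proteases and prohibitins, by a rule that uses no measured values. All 36 were found among the 28786 gene IDs of the count table, and all 36 were among the 13662 genes with enough counts to be tested. The animals of both groups were wild type C57BL/6 mice, 6 to 8 weeks old, with no treatment given in the labels. In each case 1500 bone marrow haematopoietic stem cells (HSCs) per library were sorted as Lin- Sca-1+ c-Kit+ CD48- CD150+, and 3 libraries were labelled TMRM_High and 3 TMRM_Low. TMRM is a positively charged fluorescent dye that mitochondria take up more strongly when the charge across their inner membrane is greater. The question set by the labels is which transcripts differ between HSCs with a high and a low signal of the dye. Whether each library of a group stands for its own mouse is not given in the labels, and the p-values below therefore reflect only the spread between libraries, which may be technical.

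Nearly all mitochondrial proteins are encoded in the nucleus. Coactivators of the PGC-1 family, acting with nuclear respiratory factors and ERRalpha, switch on these genes, and a small set of nuclear proteins copies and transcribes mitochondrial DNA. Mitofusins and OPA1 join mitochondria, DRP1 and its receptors divide them, and chaperones, proteases and prohibitins fold, degrade and scaffold their proteins. HSCs are known for a low reliance on oxidative phosphorylation, and the charge of their mitochondria is used to separate HSCs that differ in activity.

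The promoters that the results below return to were taken from RefSeq on GRCm38.p6. Of the 36 members, 32 had an entry, in 40 windows of 300 bases that run from 250 bases before to 50 bases after a start site. The first shown lies where the 5′ ends of Hspd1 and Hspe1 meet, the genes of the HSP60 chaperonin and its lid HSP10, which are transcribed in opposite directions and both had log2 fold changes near 0. The other sequences come from Phb2 and Phb, the prohibitin genes, which had the lowest median log2 fold change of the role groups. Each is the 250 bases before the start site, 5′ to 3′ on the plus strand, at chr1:55087898-55088147 for Hspe1, chr6:124712039-124712288 for Phb2 and chr11:95666707-95666956 for Phb. Capitals mark overlapping matches to a heat shock element in Hspe1, matches to an ETS (GABP) motif in Phb2 and an E-box in Phb.
Hspe1: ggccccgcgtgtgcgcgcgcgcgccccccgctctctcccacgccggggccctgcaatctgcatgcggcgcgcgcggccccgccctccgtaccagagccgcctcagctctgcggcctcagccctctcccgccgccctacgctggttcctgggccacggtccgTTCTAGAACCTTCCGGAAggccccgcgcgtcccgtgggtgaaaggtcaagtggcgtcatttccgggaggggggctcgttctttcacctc
Phb2: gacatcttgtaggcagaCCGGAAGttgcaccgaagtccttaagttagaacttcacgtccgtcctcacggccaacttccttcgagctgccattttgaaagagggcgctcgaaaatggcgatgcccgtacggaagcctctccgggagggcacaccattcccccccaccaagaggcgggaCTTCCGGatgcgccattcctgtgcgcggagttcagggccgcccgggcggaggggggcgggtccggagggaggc
Phb: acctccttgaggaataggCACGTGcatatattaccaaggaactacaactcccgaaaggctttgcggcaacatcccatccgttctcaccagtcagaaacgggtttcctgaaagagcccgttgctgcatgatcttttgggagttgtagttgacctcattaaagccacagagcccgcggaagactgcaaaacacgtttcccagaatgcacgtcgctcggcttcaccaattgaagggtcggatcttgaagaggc

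Motifs were searched as exact letters on both strands. The heat shock element, read as GAA, TTC and GAA with any 2 bases between them, was present in 0.603% of all 32851 promoter windows and in 2 of the 40 member windows, those of Hspd1 and Hspe1. Those windows share 285 bases, so both genes were counted on the same letters, and the matches begin 89 and 84 bases before the Hspe1 start and overlap ETS matches at 80 and 77 bases. The Hspd1 window meant here belongs to a start at 55087932. That of its other start, at 55088243, shares 4 bases with the Hspe1 window. The ETS motif CCGGAAG, the core bound by the factor GABP whose alpha subunit is the member Gabpa, was present in 8.86% of all windows and in 18 of the 40 member windows (45%), in 17 genes. The motif of the factor NRF1, itself a member, was read as GCGCA and GCGC with any base between them, and was present in 4.6% of all windows and in 7 of the member windows (17.5%): Dnaja3, Hspd1, Oma1, Opa1, Phb, Polrmt and Spg7. The E-box CACGTG was present in 7.15% of all windows and in 3 of the member windows (7.5%), of Hspd1, Lonp1 and Phb. A match describes letters only and is not evidence of binding.

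Libraries held 14270069 to 22070594 estimated counts in TMRM_High and 15930495 to 18431567 in TMRM_Low. The 36 members together took 0.299% to 0.307% of the counts in TMRM_High libraries and 0.304% to 0.317% in TMRM_Low libraries. Values below are CPM, counts per 1000000 of the scaled library size, and a log2 fold change is TMRM_High minus TMRM_Low with its standard error (SE). Markers of cells other than HSCs differed between the groups. Summed granulocyte and monocyte markers reached 15632 to 16007 CPM in TMRM_High against 4046 to 4353 CPM in TMRM_Low, with 11 of 13 tested genes higher. Summed B lymphoid markers reached 558 to 567 CPM in TMRM_High against 48.5 to 52.9 CPM in TMRM_Low, with 10 of 10 higher and Ms4a1 at 0 in all TMRM_Low libraries. Erythroid markers (6 of 11 higher) summed to 302 to 333 CPM in TMRM_High against 119.8 to 157 CPM in TMRM_Low, and megakaryocyte markers (2 of 7 higher) to 387 to 396 CPM in TMRM_High against 102 to 127 CPM in TMRM_Low. Mast cell, basophil and eosinophil markers (6 of 9 higher, Epx at 0 in TMRM_Low) summed to 334 to 351 CPM in TMRM_High against 46.8 to 75.0 CPM in TMRM_Low. T and NK lymphoid markers (1 of 8 higher, 4 lower) summed to 609.7 to 619 CPM in TMRM_High against 347 to 436 CPM in TMRM_Low. Most of that sum was Nkg7, the 1 higher gene, with a mean of 556 CPM in TMRM_High and 218 CPM in TMRM_Low, so its direction is that of Nkg7. Macrophage and dendritic markers (1 of 10 higher, 5 lower) summed to 348 to 356 CPM in TMRM_High against 667 to 697 CPM in TMRM_Low. Most of the TMRM_Low sum was Cd74, H2-Ab1 and H2-Aa, with means of 263, 262 and 122 CPM. In TMRM_High these were 95.7, 107 and 41.4 CPM, so the direction of the sum is theirs. The 1 higher, Vcam1, had a mean of 94.1 CPM in TMRM_High and 0.566 CPM in TMRM_Low. Endothelial and stromal markers (1 of 7 higher, Plvap at 0 in TMRM_Low) overlapped, at 99.0 to 100.3 CPM in TMRM_High and 93.0 to 102 CPM in TMRM_Low. HSC markers summed to 459 to 486 CPM in TMRM_High against 741 to 821 CPM in TMRM_Low, with 1 of 14 higher and 6 lower, and none was at 0 in a group. The 1 higher, Gata2, was a large part of these sums, with a mean of 219 CPM in TMRM_High and 143 CPM in TMRM_Low. G2/M genes summed to 2188 to 2217 CPM in TMRM_High against 1469 to 1552 CPM in TMRM_Low, with 9 of 15 higher. What part these differences had in the values of the members was not tested, and in bulk libraries fewer cells of a type and less RNA per cell cannot be told apart.

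Against this background the members differed little between the groups. Summed over the 36 genes, CPM were 2992, 3003 and 3038 in TMRM_High libraries against 3257, 3019.9 and 3178 in TMRM_Low libraries, and the groups overlapped. By edgeR's quasi-likelihood test with Benjamini-Hochberg adjustment over all tested genes, 0 members were higher and 1, Phb, was lower in TMRM_High at an adjusted p below 0.05. That is 2.78% of the members, where 11.0% of all tested genes passed, 5.84% higher and 5.12% lower. At an unadjusted p below 0.05 there were 6 members higher and 6 lower, 33.3% of the list against 25.6% of all tested genes. By direction these shares of all tested genes were 12.6% higher and 13.0% lower. DESeq2 called 2 members higher and 4 lower, where it called 9.69% of all tested genes higher and 9.79% lower. Limma voom called 1 member higher and 1 lower, where it called 5.67% of all tested genes higher and 6.31% lower. The median log2 fold change of the members was -0.04, beside -0.03 over all tested genes, and 3 of the 36 were changed by at least 1.5-fold, called or not, where 31.1% of all tested genes were. Values above 0 were found for 14 members (38.9%), where 47.2% of all tested genes were above 0. The median size of a log2 fold change was 0.23 over the members and 0.35 over all tested genes. The members' median level was higher, at 53.0 CPM against 23.6 CPM over all tested genes, and no background of genes at a like level was drawn.

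**Figure D1:**
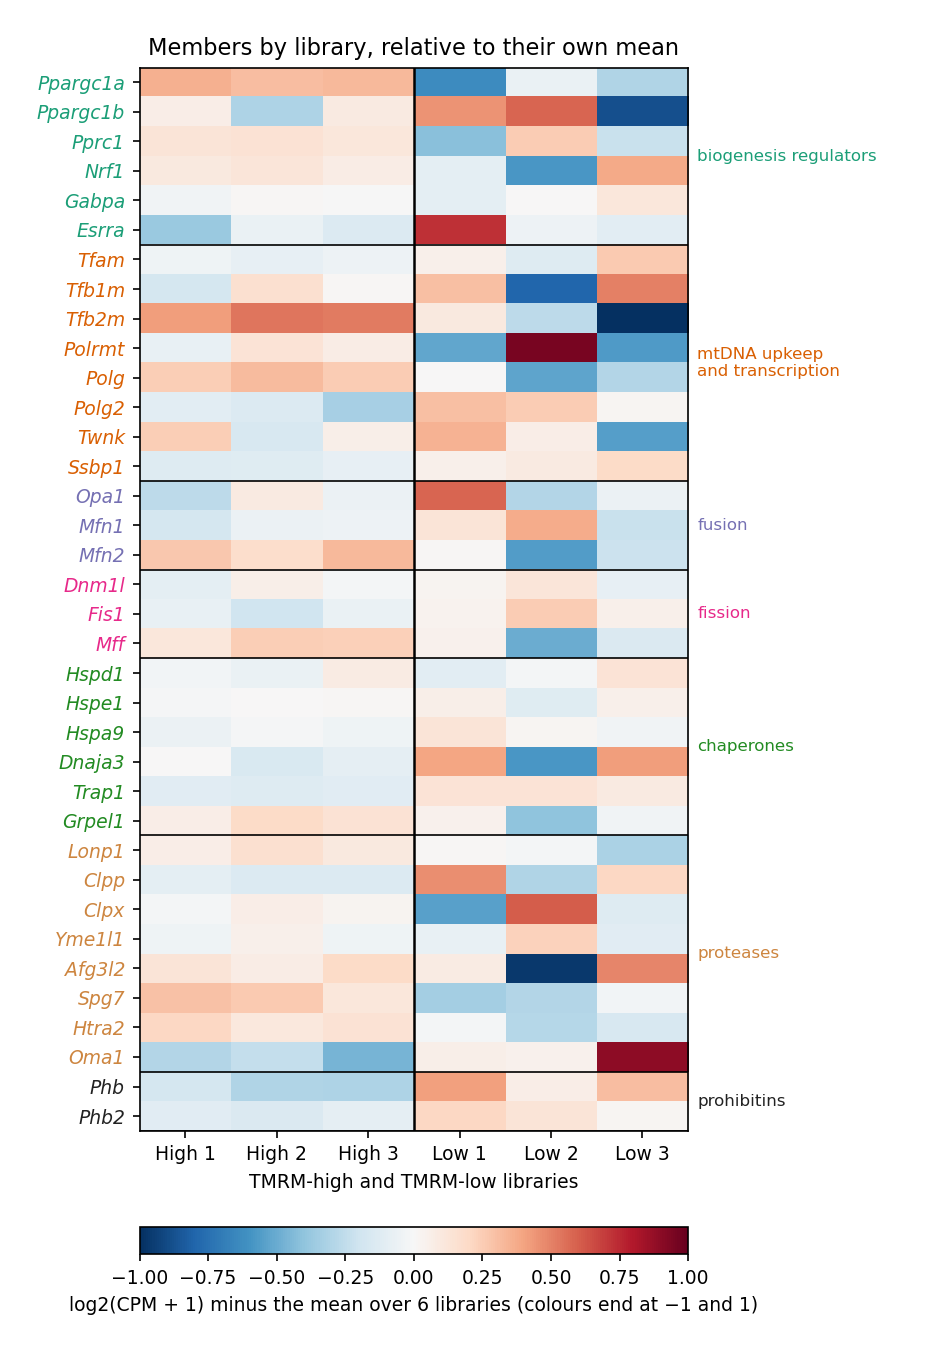
Level of each of the 36 members in each library, as log2(CPM + 1) minus the gene's mean over the 6 libraries, with red above and blue below that mean and lines between role groups. The 3 TMRM_High columns on the left are alike, and the strongest colours, such as those of Polrmt, Tfb2m, Afg3l2 and Oma1, sit in single TMRM_Low libraries.

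Precision set how far these values can be read. The edgeR fit gave each gene 1 spread shared by both groups. Estimated per group, the typical SD between libraries beyond counting noise was 7.21% of the mean in TMRM_High and 41.6% in TMRM_Low. The SEs, intervals and p-values of edgeR rest on the shared spread and describe neither group by itself. The 95% interval of the log2 fold change lay inside 2-fold in both directions for 29 members and inside 1.5-fold for 14. The groups did not overlap in CPM for 16 members, 9 higher and 7 lower in TMRM_High, which is 44.4% of the list where 35.4% of all tested genes did not overlap (18.4% higher, 17.0% lower). The plot of fold changes with intervals shows the whole list by role.

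**Figure D2:**
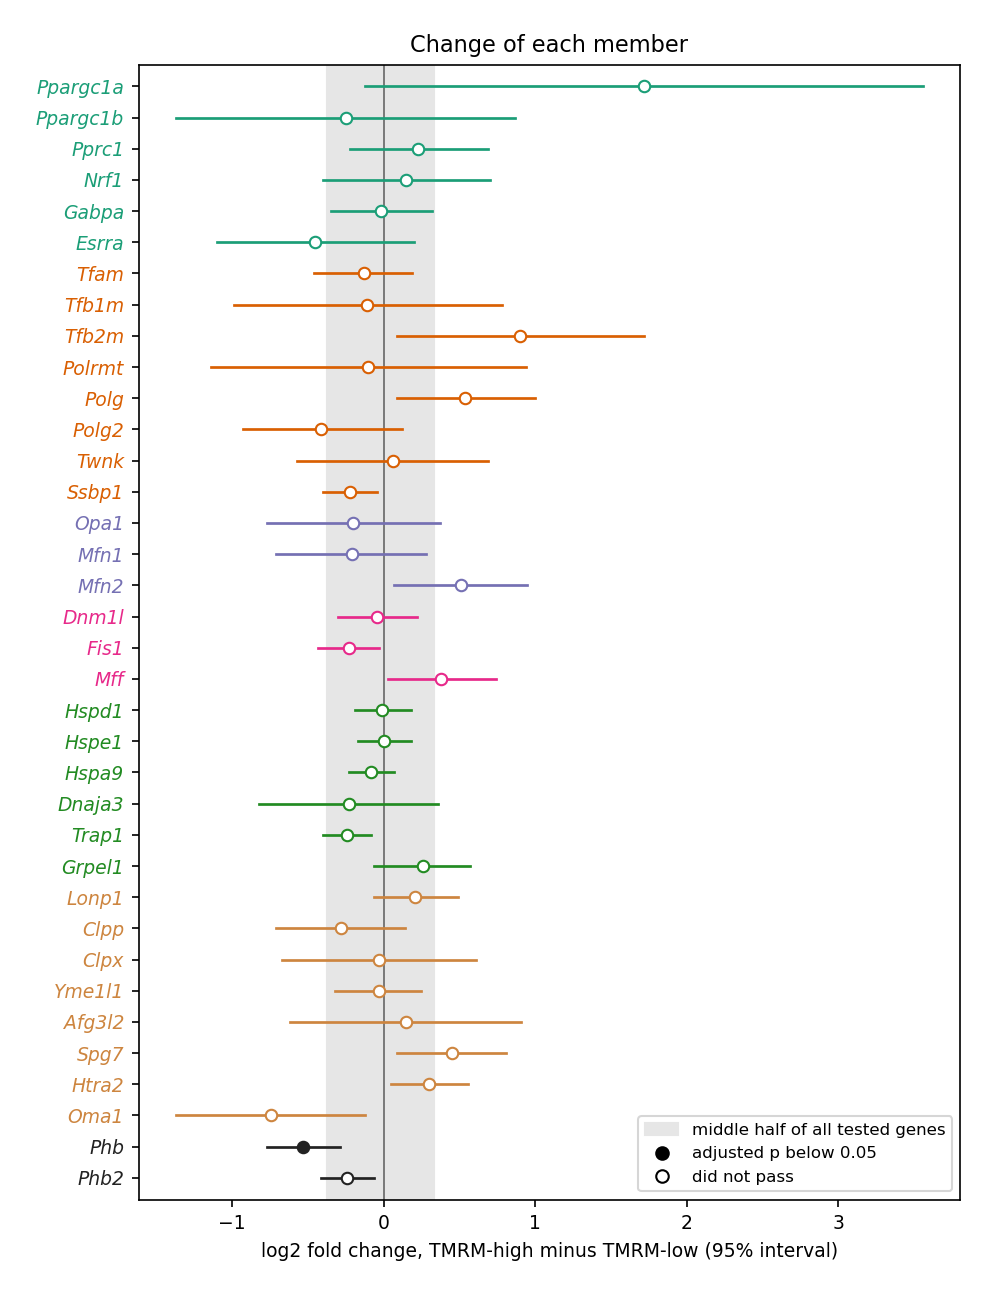
Log2 fold change, TMRM_High minus TMRM_Low, of each member (points) with its 95% interval (lines) from edgeR, ordered and coloured by role group, with the interquartile range of all tested genes, -0.37 to 0.33, as a grey band. Phb, the filled point at -0.53, is the only member past an adjusted p of 0.05, and Ppargc1a has the widest interval, from -0.12 to 3.56.

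Among the regulators of biogenesis, none of 6 passed the edgeR test, and none did so at an unadjusted p below 0.05, with DESeq2 or with limma voom. Ppargc1a, which encodes PGC-1alpha, was close to the limit of detection. Its gene at chr5:51454250-51567726 (GRCm38) had 24, 20 and 15 counts in TMRM_High libraries against 1, 9 and 6 counts in TMRM_Low libraries. In CPM these were 1.09, 1.03 and 1.04 in TMRM_High against 0.0579, 0.562 and 0.327 in TMRM_Low. Every TMRM_High library was above every TMRM_Low library. The log2 fold change of 1.72 (SE 0.793, adjusted p = 0.224 by edgeR) carried an interval of -0.12 to 3.56, so neither no change nor a several-fold difference lay outside it. Esrra, the gene of the nuclear receptor ERRalpha, had 17.3, 21.6 and 20.6 CPM in TMRM_High and 38.3, 21.8 and 21.1 CPM in TMRM_Low. A single TMRM_Low library stood high and the groups overlapped narrowly, with a log2 fold change of -0.45 (SE 0.281, adjusted p = 0.372 by edgeR). The remaining 4 regulators lay between -0.25 for Ppargc1b, encoding PGC-1beta, and 0.23 for Pprc1, encoding the related coactivator PRC. Gabpa was at -0.02 and Nrf1, the gene of nuclear respiratory factor 1, at 0.15.

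The 8 genes of mitochondrial DNA upkeep and transcription also gave no call with edgeR, although 2 were higher and 1 lower at an unadjusted p below 0.05. DESeq2 called 1 higher and 1 lower, and limma voom 1 higher. Polg, the catalytic subunit of the mitochondrial DNA polymerase, had 34.8, 36.8 and 35.1 CPM in TMRM_High against 29.4, 20.0 and 23.7 CPM in TMRM_Low. The groups were apart, with a log2 fold change of 0.54 (SE 0.196, interval 0.09 to 1.00, adjusted p = 0.124 by edgeR). Ssbp1, the protein that coats single-stranded mitochondrial DNA, had 129, 129.7 and 133 CPM in TMRM_High against 146, 150.2 and 161 CPM in TMRM_Low. It was lower in each TMRM_High library than in any TMRM_Low library, but by a small amount, with a log2 fold change of -0.22 (SE 0.0779, adjusted p = 0.115 by edgeR). Polg2, the accessory subunit of the polymerase, pointed the other way from Polg, at -0.41 (SE 0.228, adjusted p = 0.318).

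Other genes of this group were picked out after their values were seen. Tfb2m, the initiation factor of mitochondrial transcription, had the largest positive value apart from Ppargc1a, with 34.8, 38.0 and 37.5 CPM in TMRM_High against 27.7, 21.3 and 9.85 CPM in TMRM_Low. The TMRM_Low libraries were lower and widely spread, and the log2 fold change of 0.90 had an interval of 0.09 to 1.72 (adjusted p = 0.151 by edgeR). Of the 31-base words in Tfb2m transcripts, 35.2% also occur in the pseudogene Gm1818, which held 147 counts in TMRM_High and 16 in TMRM_Low, so its reads can be split between these genes. Polrmt, the mitochondrial RNA polymerase, had 15.9, 18.5 and 17.8 CPM in TMRM_High and 11.4, 33.5 and 11.0 CPM in TMRM_Low. The TMRM_High values lay between the extremes of TMRM_Low, with a log2 fold change of -0.10, which was 0.64 without TMRM_Low replicate 2. Tfam, which packages mitochondrial DNA and starts its transcription, was similar in mean, at -0.13 with an adjusted p of 0.621, as were Tfb1m at -0.11 and the helicase Twnk at 0.06.

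The machinery of fusion and fission gave no edgeR call among 6 genes, where 2 were higher and 1 lower at an unadjusted p below 0.05, and neither DESeq2 nor limma voom called any. Mfn2, a mitofusin of the outer membrane, had 42.3, 39.4 and 43.9 CPM in TMRM_High against 35.1, 23.3 and 29.8 CPM in TMRM_Low, without overlap. The log2 fold change was 0.51 (SE 0.190, interval 0.07 to 0.95, adjusted p = 0.136 by edgeR). Mfn1, its paralog, had 22.6, 24.5 and 24.7 CPM in TMRM_High and 28.0, 33.5 and 21.8 CPM in TMRM_Low, with overlap and a log2 fold change of -0.21 (SE 0.213, adjusted p = 0.593). Opa1, which joins inner membranes and holds cristae closed, lay at -0.20 (adjusted p = 0.665 by edgeR), with its highest value of 65.6 CPM in TMRM_Low replicate 1 and a value of 0.11 without that library.

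On the fission side, the gene of the dividing GTPase DRP1, Dnm1l, was at -0.04 (adjusted p = 0.864 by edgeR). Its receptors moved in opposite directions by small amounts that did not pass. Fis1, an outer membrane adaptor, had 195, 179 and 196 CPM in TMRM_High against 211, 245 and 214 CPM in TMRM_Low, all TMRM_High libraries being lower. Its log2 fold change was -0.23 (SE 0.0854, adjusted p = 0.132). Mff, the receptor that recruits DRP1, had 86.8, 95.4 and 94.6 CPM in TMRM_High against 82.8, 56.5 and 72.6 CPM in TMRM_Low, all TMRM_High libraries being higher. The value was 0.38 (SE 0.151, adjusted p = 0.158).

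The matrix chaperones included the most abundant members. HSP60 and HSP10 form the folding chamber of the matrix, and their genes, at chr1:55077835-55088243 and chr1:55088132-55091307, are those with the overlapping promoter windows described above. Their values are given because of their level and these windows. Hspd1 had 349, 340.2 and 376 CPM in TMRM_High and 330.1, 350.2 and 391 CPM in TMRM_Low. Hspe1 had 195, 198 and 199 CPM in TMRM_High and 205, 181 and 204 CPM in TMRM_Low. The groups overlapped for both genes. The log2 fold changes were -0.01 (interval -0.19 to 0.18) for Hspd1 and 0.00 (interval -0.17 to 0.18) for Hspe1, which leave out a 1.5-fold difference in either direction. The ratio of Hspd1 to Hspe1, per kilobase of exon, was 0.996, 0.959 and 1.06 in TMRM_High and 0.898, 1.08 and 1.07 in TMRM_Low. Other annotated genes share 53.1% of the 31-base words of Hspd1 and 30.5% of those of Hspe1, and the pseudogene Hspd1-ps3, with 46.5% of the Hspd1 words, held 6 counts in TMRM_High and 2 in TMRM_Low.

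The other chaperones did not pass the edgeR test either, with 1 lower at an unadjusted p below 0.05. Trap1, the mitochondrial HSP90, was the closest, with 135, 133 and 135 CPM in TMRM_High against 160.2, 160.0 and 155 CPM in TMRM_Low. These groups were far apart relative to their spread, but the difference was small, at a log2 fold change of -0.24 (SE 0.0712, interval -0.40 to -0.08, adjusted p = 0.0724). DESeq2 called it lower and limma voom did not. Grpel1, the nucleotide exchange factor of mortalin, had 93.9, 102 and 99.0 CPM in TMRM_High against 92.2, 67.5 and 87.3 CPM in TMRM_Low, just without overlap. It stood at 0.26 (SE 0.134, adjusted p = 0.286). Of its exon bases, 11.6% overlap the opposite-strand gene Tada2b, which held 352 counts in TMRM_High and 33 in TMRM_Low. Reads of that stretch cannot be told apart in a protocol that does not mark strand. Hspa9, which encodes mortalin, the HSP70 that drives import, was at -0.08 (interval -0.23 to 0.07), and its co-chaperone Dnaja3 was at -0.23 with an adjusted p of 0.634. Without TMRM_Low replicate 2, Dnaja3 was called lower, at -0.49 (adjusted p = 0.0221 by edgeR).

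None of the 8 proteases passed with edgeR, where 2 were higher and 1 lower at an unadjusted p below 0.05. DESeq2 called 1 higher and limma voom called none. Spg7, the paraplegin subunit of the inner membrane m-AAA protease, had 51.9, 50.6 and 45.5 CPM in TMRM_High against 33.0, 34.1 and 41.1 CPM in TMRM_Low. There was no overlap, and the log2 fold change was 0.45 (SE 0.155, interval 0.09 to 0.81, adjusted p = 0.110). Oma1, the stress-activated protease that cuts OPA1, had 23.3, 24.2 and 20.6 CPM in TMRM_High against 30.0, 29.7 and 54.2 CPM in TMRM_Low. All TMRM_High values were lower, by a log2 fold change of -0.74 (SE 0.269, interval -1.37 to -0.12, adjusted p = 0.130), the lowest of all members. A single TMRM_Low library carried much of it, and without that library the value was -0.39. Yme1l1, the other protease that cuts OPA1, was at -0.03 with an adjusted p of 0.897.

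The remaining proteases lay from -0.28 to 0.30. Htra2, of the intermembrane space, was at 0.30 (SE 0.111, adjusted p = 0.130 by edgeR), and 25.6% of its exon bases overlap the opposite-strand gene Aup1 and 18.2% Loxl3, whose reads cannot be told from its own in a protocol that does not mark strand. Lonp1, the matrix protease that also degrades TFAM, was at 0.21 (adjusted p = 0.319). Clpp and its unfoldase Clpx were at -0.28 and -0.03, and Afg3l2, the partner of paraplegin, at 0.15. Their TMRM_Low libraries were uneven, and leaving out TMRM_Low replicate 2 gave Clpp a call as lower, at -0.47 (adjusted p = 0.0310 by edgeR), and turned Clpx to 0.35 and Afg3l2 to -0.17, both not passing. Afg3l2 had 50.1, 48.3 and 52.2 CPM in TMRM_High and 48.5, 22.9 and 64.6 CPM in TMRM_Low.

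Of the role groups of the members, only the prohibitins, with 2 genes, had summed levels that separated the libraries. Phb and Phb2 encode partner proteins that form ring complexes in the inner membrane, where they hold m-AAA proteases and stabilise OPA1. Their summed CPM were 329.9 to 347 in TMRM_High against 411 to 474 in TMRM_Low, while the sums of the 6 other role groups overlapped. Separation was not particular to them, as 35.4% of all tested genes did not overlap, 17.0% being lower in TMRM_High. Mitochondrial ribosomal protein genes, outside the members, summed to 5042 to 5177 CPM in TMRM_High against 5500.5 to 5601 CPM in TMRM_Low, also apart. Of these 77 tested genes, 23 were lower without overlap. Phb (ENSMUSG00000038845, chr11:95666957-95680773) had 157, 144 and 144 CPM in TMRM_High against 237, 186 and 220.5 CPM in TMRM_Low. All TMRM_High libraries were below all TMRM_Low libraries. Phb fell to 148 ± 7.68 CPM in TMRM_High, against 214 ± 25.7 CPM in TMRM_Low (SD, n = 3 libraries each), 0.691-fold (log2 fold change -0.53, SE 0.103, interval -0.77 to -0.29, adjusted p = 0.0175 by edgeR's quasi-likelihood test). Phb2 (ENSMUSG00000004264, chr6:124712336-124716950) had 189.7, 186 and 193 CPM in TMRM_High against 237, 225 and 208 CPM in TMRM_Low, again without overlap. It differed 0.849-fold (log2 fold change -0.24, SE 0.0743, interval -0.41 to -0.06) and did not pass with edgeR (adjusted p = 0.0847). DESeq2 called both lower, and limma voom called Phb.

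Leaving out a TMRM_Low library gave a call to 8 further members: Polg (0.71, adjusted p = 0.0341), Mfn2 (0.66, 0.0453) and Htra2 (0.38, 0.0438) without replicate 1, Dnaja3 and Clpp without replicate 2 as given above, and Spg7 (0.56, 0.0314), Trap1 (-0.25, 0.0419) and Phb2 (-0.28, 0.0279) without replicate 3. Calls rose over all tested genes too, from 798 higher and 700 lower of 13662 with all libraries. Without TMRM_Low replicate 1 they were 1225 and 985 of 14134, and without replicate 2 they were 1218 and 1063 of 14097. Without replicate 3 they were 1398 and 1174 of 14000, so the gains were not particular to the members. The call for Phb was lost without any 1 TMRM_High library, while its direction held. Without TMRM_High replicate 1, 2 or 3, the adjusted p was 0.0690, 0.106 or 0.108, and with these libraries summed into 1 it was 0.610 at a log2 fold change of -0.52. The processed pseudogene Gm7666 shares 27.3% of the 31-base words of Phb and held 440 counts in TMRM_High and 723 in TMRM_Low. With the counts of such copies added to their genes, an alternative chosen after the data were seen, Phb was at -0.55 (adjusted p = 0.0112 by edgeR). The protein-coding gene Fyb, which is no such copy, shares 11.1% of these words and held 3218 counts in TMRM_High and 2838 in TMRM_Low. What part this sharing had in the value of Phb was not tested.

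**Figure D3:**
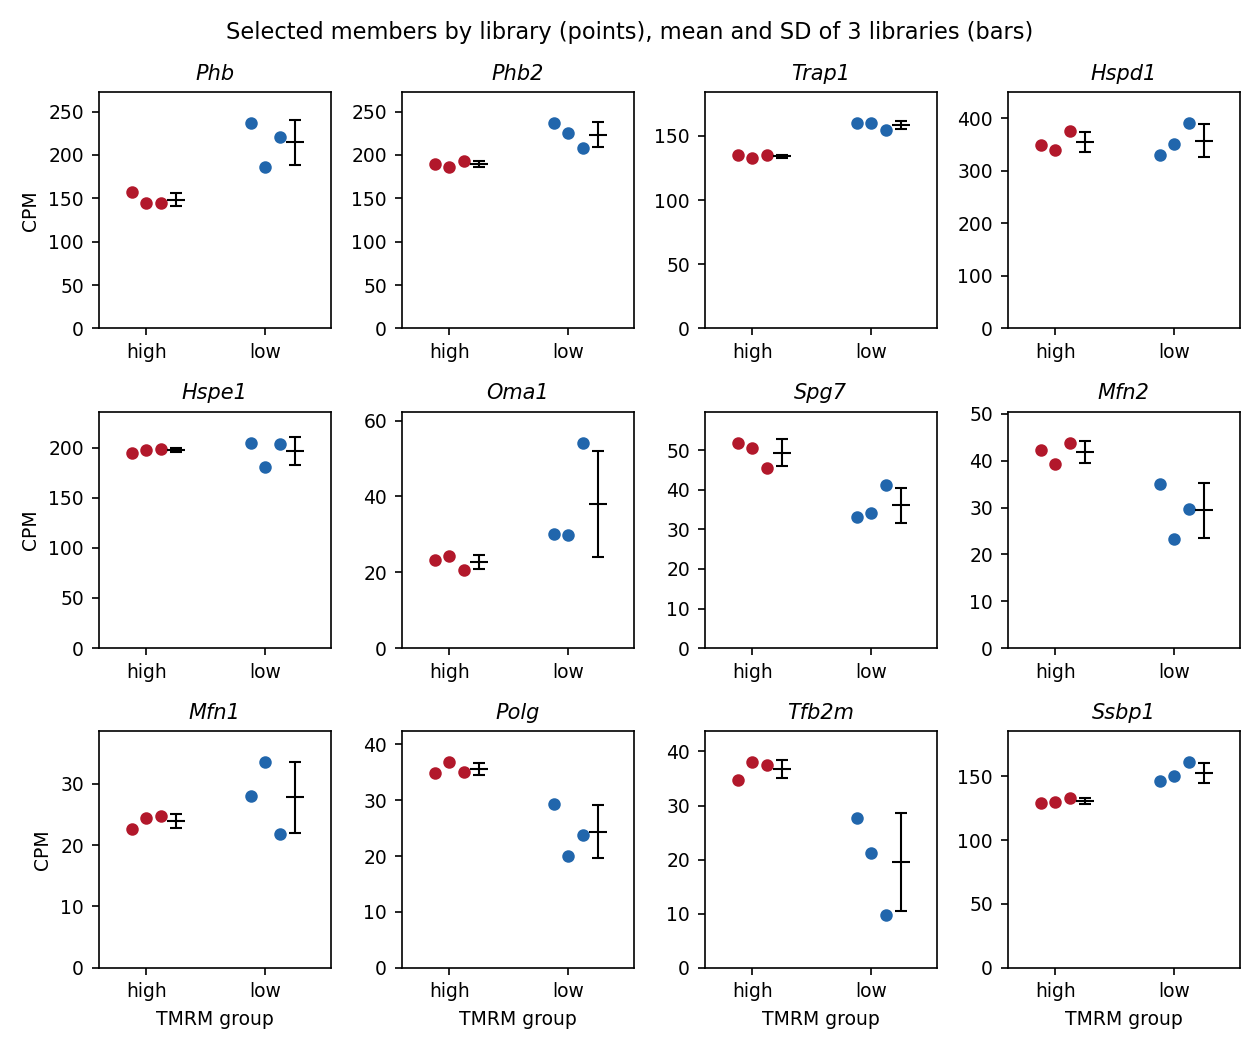
CPM of 12 members in each library (points), with the mean and SD of the 3 libraries (bars), TMRM_High on the left and TMRM_Low on the right of each panel, each axis starting at 0. Phb, Phb2, Trap1, Oma1 and Ssbp1 are lower and Spg7, Mfn2, Polg and Tfb2m higher in every TMRM_High library, and Hspd1, Hspe1 and Mfn1 overlap.

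Ratios between partner genes were compared over libraries for 5 pairs, per kilobase of exon. They were not planned beforehand and restate the values of the members described above, so they are no separate evidence. With 3 libraries against 3, the smallest p an exact permutation test allows is 0.1, so none could reach 0.05. The Polg to Polg2 ratio was 0.903, 0.979 and 1.08 in TMRM_High against 0.567, 0.398 and 0.563 in TMRM_Low, without overlap (exact two-sided p = 0.1, adjusted over the 5 ratios 0.167). The Mfn2 to Mfn1 ratio was 2.21, 1.89 and 2.09 in TMRM_High against 1.47, 0.821 and 1.61 in TMRM_Low, with the same exact p values. Phb to Phb2 stood at 1.04 ± 0.0567 in TMRM_High against 1.27 ± 0.157 in TMRM_Low (SD, n = 3), barely without overlap, again at the smallest exact p. The ratios Hspd1 to Hspe1 (exact p = 0.800) and Clpx to Clpp (exact p = 0.700) overlapped, the first averaging 1.00 in TMRM_High and 1.02 in TMRM_Low.

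Levels differed far more between genes than between groups. Per kilobase of annotated exon, Hspd1 led with 134 CPM in TMRM_High and 135 CPM in TMRM_Low, and Hspe1, at 134 CPM in TMRM_High and 133 CPM in TMRM_Low, did not differ from it beyond the spread. Fis1 followed with 111 CPM per kilobase in TMRM_High and 130 in TMRM_Low, then Hspa9 with 78.0 in TMRM_High and 82.4 in TMRM_Low. Clpp came next with 69.5 in TMRM_High and 84.5 in TMRM_Low. Phb, Trap1 and Phb2 lay from 51.0 to 52.8 in TMRM_High, closer together than their spread, and from 60.1 to 76.4 in TMRM_Low. The DNA polymerase Polg, at 3.31 in TMRM_High and 2.27 in TMRM_Low, and the PGC-1 genes were lowest. Ppargc1b was at 1.79 in TMRM_High and 2.13 in TMRM_Low, and Ppargc1a at 0.160 in TMRM_High and 0.0478 in TMRM_Low. Exon length counts all annotated exons of a gene, which lowers the value of genes with long rarely used exons. Unscaled by length, the median of the members' mean CPM was 53.0, above the 23.6 of all tested genes.

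The members varied far less between TMRM_High libraries than between TMRM_Low libraries. The coefficient of variation (CV, the SD as a share of the mean) was larger in TMRM_Low for 36 of 36 members, and for 90.4% of all tested genes. Its median over the members was 4.47% in TMRM_High and 19.2% in TMRM_Low, beside 8.03% in TMRM_High and 28.2% in TMRM_Low over all tested genes. Trap1 was the steadiest member in both groups, at 0.680% in TMRM_High and 1.84% in TMRM_Low, and Ppargc1a the most variable in TMRM_Low, at 79.9%. A chi-square per degree of freedom, which is near 1 for counting noise alone, was 2.46 to 4.72 between TMRM_High libraries and 31.6 to 61.0 between TMRM_Low libraries over the members. PCR copies count as reads in these values, so they do not show whether the libraries of a group are separate samples, and all 6 were used as the labels give them.

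**Figure D4:**
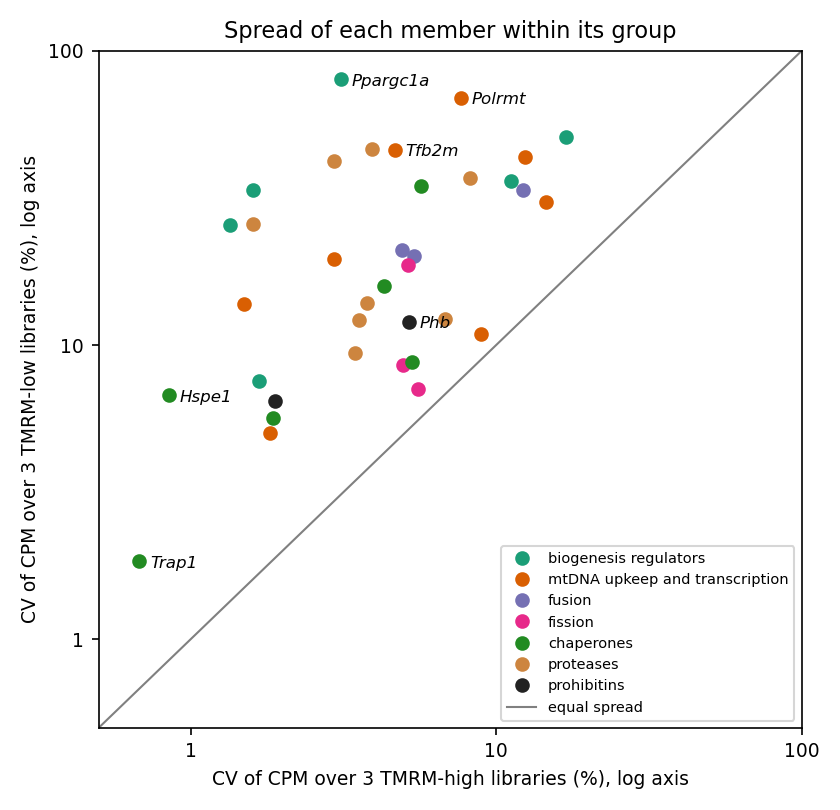
CV of CPM over the 3 TMRM_High libraries (horizontal) against that over the 3 TMRM_Low libraries (vertical) for each member, both in percent on log axes, coloured by role group. All 36 points lie above the line of equal spread, from Trap1 at 1.84% in TMRM_Low up to Ppargc1a at 79.9%.

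Other genes of the same processes were looked at in 6 wider lists, 131 tested of 136 in the table. With edgeR 4 were higher and 1 was lower, together 3.82%, where 11.0% of all tested genes passed. The median log2 fold change was -0.03, that of all tested genes. Of 15 tested biogenesis regulators outside the 36, 2 were higher (13.3%, where 5.84% of all tested genes were). Perm1, a muscle-enriched regulator that acts with PGC-1alpha, rose to 2.88 ± 0.685 CPM in TMRM_High against 0.345 ± 0.167 CPM in TMRM_Low (SD, n = 3; log2 fold change 3.03, SE 0.646, adjusted p = 0.0242 by edgeR). It was close to the limit of detection in TMRM_Low, with 9, 3 and 6 counts against 46, 64 and 47 in TMRM_High, so the size of its change is poorly set. Cnot7, a deadenylase, rose to 79.7 ± 5.20 CPM in TMRM_High against 52.6 ± 7.85 CPM in TMRM_Low (log2 fold change 0.60, SE 0.141, adjusted p = 0.0351 by edgeR). Perm1 lost its call without any 1 TMRM_High library and with limma voom, and Cnot7 did so without any 1 TMRM_High library or without TMRM_Low replicate 2.

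Of 26 other genes of mitochondrial DNA upkeep and transcription, 1 was lower (3.85%, where 5.12% of all tested genes were). Slirp, which binds mitochondrial messenger RNAs with LRPPRC, fell to 57.4 ± 1.93 CPM in TMRM_High against 86.1 ± 13.0 CPM in TMRM_Low (SD, n = 3; log2 fold change -0.59, SE 0.135, adjusted p = 0.0324 by edgeR), a call lost without any 1 TMRM_High library. In the lists of other dynamics and cristae genes (27 tested), protein import (31) and other chaperones, proteases and peptidases (22), edgeR called 0. An unadjusted p below 0.05 was found for 2, 4 and 5 genes, beside 25.6% of all tested genes. DESeq2 called 1, 2 and 2 genes of these lists, and limma voom called 0 in each. The smallest p in each belonged to Rhot1, the Miro1 motor adaptor, at 0.50 (adjusted p = 0.0963), Timm13, an import chaperone, at -0.33 (0.0565), and Pmpcb, a subunit of the presequence peptidase, at 0.45 (0.0833).

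The smallest p-values in the wider lists were in the list named mitochondrial stress response, where 2 of 10 tested genes were higher and 0 lower with edgeR, DESeq2 and limma voom and at an unadjusted p below 0.05. With edgeR that is 20.0% higher, where 5.84% of all tested genes were. Atf4, the transcription factor of the integrated stress response, had 375, 373 and 401 CPM in TMRM_High against 227, 265 and 230.1 CPM in TMRM_Low. Every TMRM_High library was above every TMRM_Low library, and Atf4 rose by a log2 fold change of 0.67 (SE 0.0788, adjusted p = 0.00192 by edgeR). Ddit3, encoding the stress factor CHOP, had 51.4, 45.7 and 45.2 CPM in TMRM_High against 18.1, 24.8 and 19.9 CPM in TMRM_Low. It rose by 1.18 (SE 0.182, adjusted p = 0.00672 by edgeR), a call lost without TMRM_High replicate 1. The other 8 did not pass and ranged from -1.54 for Chac1 to 0.69 for Gdf15, both wide in interval (-5.26 to 2.19 for Chac1 and -0.48 to 1.85 for Gdf15). The list's median was -0.09, with 4 values above 0 and 6 below. Hspd1 and Hspe1, which are often read as markers of the unfolded protein response of mitochondria, had the values near 0 given above.

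The 13 protein genes of mitochondrial DNA itself gave 4 calls higher and 0 lower with edgeR, 8 and 1 at an unadjusted p below 0.05, 8 and 0 with DESeq2, and 7 and 1 with limma voom. Of all tested genes, 5.84%, 12.6%, 9.69% and 5.67% were higher in the same order, and 5.12%, 13.0%, 9.79% and 6.31% lower. Their summed CPM were 63618 to 68688 in TMRM_High against 54019.7 to 61563 in TMRM_Low, while the sum of the 8 upkeep and transcription members, at 327 to 332 CPM in TMRM_High and 327 to 344 CPM in TMRM_Low, overlapped.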

How the data were processed

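The series holds RNA-seq of 6 libraries. The authors deposited estimated counts for each gene, unscaled, made with Salmon (listed as version 0.03.1) after Trim Galore 0.5.0 for GRCm38, per the submitters' processing notes. Its annotation and settings: not given in the sources used here. Per the labels' protocols, cDNA was amplified by 13 PCR cycles and cut by tagmentation, without strand marks or molecular identifiers. PCR copies therefore count as reads.

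Counts were rounded to whole numbers. Genes kept by filterByExpr were scaled by TMM and tested with edgeR 4.0.16 (quasi-likelihood, robust, group only) in R 4.3.3, with calls below 0.05 after Benjamini-Hochberg adjustment. CPM and log2 fold changes were computed here from the authors' deposited counts. Symbols, positions and exon lengths come from GENCODE M21 (GRCm38), matched for 27797 of 28786 IDs. Alternatives were other scalings, filters and thresholds, DESeq2 1.42.0, limma 3.58.1 voom, a replicate block, each library left out, summed TMRM_High libraries, no mitochondrially encoded counts and added pseudogene copies.

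The rule for the members reads no measured values, but members, role groups, wider lists and markers were drawn up with earlier results of these data known. Full values are given for called members and for the smallest p up to 2 per role group, and for up to 3 called genes per direction in each wider list, or else the smallest p. Other genes named with values were chosen after these were seen. Mpv17 and Micos13, listed among the wider genes, were not analysed here.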

Additional observations from a re-analysis of the deposited data

How the results depend on the processing

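Every value of Phb stayed negative, from -0.62 to -0.45 over the 16 planned refits, and its call held in 12 of them, the exceptions being the removal of any 1 TMRM_High library and the sum of these libraries. With each library left out in turn, members called ranged from 0 to 3 higher and from 0 to 3 lower, all genes called from 250 to 1398 higher and from 181 to 1174 lower, and genes of the wider lists called from 1 to 7 higher and from 0 to 5 lower. The low ends came from leaving out a TMRM_High library and the high ends from leaving out a TMRM_Low library. The cause was not tested.

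Median log2 fold changes over left-out libraries ranged from -0.08 to -0.01 for the members, from -0.29 to 0.11 for fusion (0.11 without TMRM_Low replicate 1), from 0.01 to 0.16 for proteases, from -0.09 to 0.01 for fission, and from -0.43 to -0.32 for prohibitins. DESeq2 called 2 members higher (Polg, Spg7) and 4 lower (Ssbp1, Trap1, Phb, Phb2), 1324 and 1337 of all genes, and 6 wider genes lower. Limma voom called 1 member higher (Tfb2m) and 2 wider genes lower, with medians of 0.05 for mitochondrial DNA upkeep and 0.13 for proteases. An adjusted p below 0.10 gave 3 members, 6 wider genes and 1138 of all genes lower. A minimum of 2-fold left 0 members lower, 2 wider genes higher and 0 lower, and 434 and 300 of all genes. Summing the TMRM_High libraries left 0 members lower, 0 wider genes in each direction, and 86 and 42 of all genes. Wider genes called lower were 3 with upper-quartile scaling, 2 with total-count scaling, 2 without a count filter and 3 with a mean count of at least 50, where the median of biogenesis regulators was -0.02.

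The correlations of same-numbered deviations were -0.01, 0.02 and 0.02. Because the TMRM_High libraries varied so little, this check cannot show whether same-numbered libraries are paired. With a replicate block, 582 genes were higher and 449 lower, wider genes were 2 higher and 0 lower, medians were 0.04 for mitochondrial DNA upkeep and 0.13 for proteases, and Phb kept its call, while Perm1 (adjusted p = 0.0845), Cnot7 (0.0699) and Slirp (0.0617) lost theirs. The direction of 13 members, none with a log2 fold change over 0.25 in size, turned when some library was left out, and none of them was called. Among the members, depth limits mainly Ppargc1a, with 1 to 24 counts per library.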
